A study of Homo sapiens with 6 samples.

Results

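The polyamines putrescine, spermidine and spermine are small cations that bind nucleic acids, and prostate epithelium makes and secretes them in large amounts. Ornithine decarboxylase (ODC1) makes putrescine from ornithine, and the synthases SRM and SMS add aminopropyl groups that come from decarboxylated S-adenosylmethionine, the product of AMD1. Breakdown runs through acetylation by SAT1 and oxidation by PAOX, or through direct oxidation of spermine by SMOX. Antizymes (OAZ1, OAZ2) bind ODC1 and send it to the proteasome, and the antizyme inhibitor AZIN1, a relative of ODC1 without its enzyme activity, takes antizyme away from it. Much of this control acts on translation and protein turnover, which an mRNA array does not measure.

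The 10 genes named above were taken with every probe that the platform's annotation pairs with them. Of the 10 genes, 9 had a probe, with 15 probes of the 48803 on the array, while OAZ2 was paired with none and was not analysed here. The samples were LNCaP cells, an androgen-responsive line from a lymph node metastasis of prostate cancer, harvested 72 h after transfection with 100 nM siRNA. The question was which transcripts change when TCTP, a growth-related protein, is depleted. The treated cells received siRNA against TCTP (siTCTP, 3 samples), and the control cells siRNA against luciferase (siLuc, 3 samples), a gene that human cells lack. All samples were of 1 cell line, and each condition rests on 1 siRNA. The series record calls the samples biological replicates without saying whether they were transfected on separate days, so that p-values measure the spread between these samples. No array of untransfected cells was analysed here.

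Each sample was hybridised to 1 Illumina HumanWG-6 v3 array. The median raw intensities were between 35.6 and 39.8 on the siTCTP arrays and between 38.0 and 43.4 on the siLuc arrays, and each array detected 12828 to 13741 probes (detection p under 0.01). Values below are quantile-normalized log2 intensities without background subtraction, which shrinks the change of a dim probe. A gene was tested if a probe was detected on at least 3 of the 6 arrays, which held for 8968 genes. TPT1, which encodes TCTP, was lower on its dimmer probe (log2 change -0.75, adjusted p = 0.00331 over all detected probes from limma) and had a log2 change of -0.19 (adjusted p = 0.471) on its brighter probe, where the groups overlapped. The brighter probe had raw intensities from 14740 (siTCTP replicate 2) to 20440 (siLuc replicate 1), and what this does to its change was not tested. The study reports knockdown of mRNA and protein for its profiling, without showing the data. Of 12 luminal prostate markers 10 had a probe and all 10 were tested, although KLK3 was dim (mean log2 intensity 6.43 after siTCTP and 6.41 after siLuc). None of the 10 was called at an adjusted p under 0.05, beside 2.55% of all genes tested, and 2, KLK2 and TMPRSS2, were lower at an unadjusted p under 0.05 from limma, beside 8.05% of all genes. Their summed linear level was 19664 to 21473 on the siTCTP arrays and 22133 to 24433 on the siLuc arrays, which did not overlap. Bright probes weigh most in such a sum. The 10 markers had a median log2 change of -0.018, with 6 below 0 and 4 above 0. No basal, fibroblast or leukocyte marker passed the detection filter, and of 5 endothelial markers with a probe only VWF did (log2 change -0.30, adjusted p = 0.166 from limma). Sums of these lists add every probe, detected or not, so that apart from VWF they hold signal near background. They were lower on the siTCTP arrays for basal (270.3 to 275.3, against 281.6 to 298.7 on the siLuc arrays) and fibroblast markers (420.6 to 431.2, against 437.5 to 446.0). The same held for endothelial markers (475.2 to 500.1, against 521.0 to 588.4), while the leukocyte sums overlapped (645.5 to 664.1, against 645.7 to 651.7). No change of a cell type was read from them. The part of these shifts in the values below was not tested. With 3 arrays a group, precision was limited throughout.

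None of the 9 polyamine genes passed the test at a Benjamini-Hochberg adjusted p under 0.05 (limma), where 2.55% of all genes tested did. Of their 12 tested probes none passed over all detected probes, where 1.93% did. At an unadjusted p under 0.05 there were 2, SAT1 and AZIN1, both lower after siTCTP, beside 15.6% of all genes in either direction and 8.05% lower. The groups did not overlap in the same 2 genes, beside 21.2% of all genes tested in either direction and 10.8% lower. A further 5 genes had a log2 change below 0, so 7 in all, and 2 had one above 0. Over all 8968 genes 4454 changes were below 0 and 4514 above. The 9 genes had a median log2 change of -0.088, and all genes one of 0.0011. The changes of the 9 genes lay between -0.37 and 0.22, with a median size of 0.13 against 0.11 over all genes and a median standard error of 0.11.

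**Figure D1:**
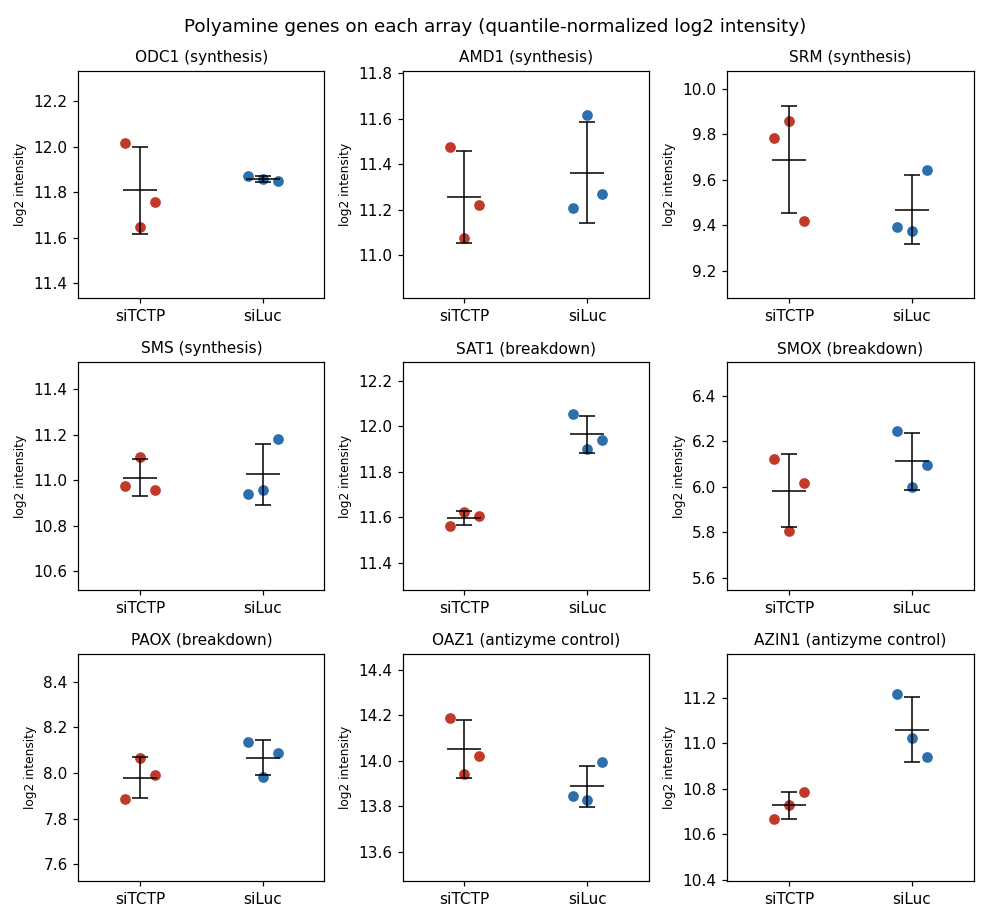
Quantile-normalized log2 intensity (vertical axes, each spanning 1 log2 unit) of the 9 polyamine genes on the 3 siTCTP arrays (red) and the 3 siLuc arrays (blue), with mean and SD in black. The groups are separate in SAT1 and AZIN1 and overlap in the other genes.

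The breakdown gene SAT1 stood closest to the threshold. SAT1, the rate-limiting enzyme of polyamine breakdown, acetylates spermidine and spermine. It gave log2 values of 11.56, 11.62 and 11.61 on the siTCTP arrays, against 12.05, 11.90 and 11.94 on the siLuc arrays. All 3 siTCTP arrays were below all 3 siLuc arrays, and the siTCTP arrays lay close together. The means were 11.60 ± 0.03 after siTCTP and 11.96 ± 0.08 after siLuc (SD, n = 3 each), a log2 change of -0.37 ± 0.10 (SE, adjusted p = 0.0673 from limma). The signal after siTCTP was 77.6% of that after siLuc, with a 95% interval of 67.1% to 89.7%. By its p SAT1 ranked 306 of the 8968 genes. The call of SAT1 depended on the setting: the adjusted p was 0.0461 after normexp background correction and 0.0359 with a trended, robust variance, while median scaling gave a log2 change of -0.30 (adjusted p = 0.365 from limma).

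The RefSeq sequence upstream of SAT1 is given because SAT1 had the smallest p of the polyamine genes. SAT1 lies on chromosome X (GRCh38.p14), and the 250 bases before its start are chrX:23782923-23783172 on the plus strand. Capitals mark the CCAAT box (CCAAT on either strand), which occurred 2 times.
SAT1: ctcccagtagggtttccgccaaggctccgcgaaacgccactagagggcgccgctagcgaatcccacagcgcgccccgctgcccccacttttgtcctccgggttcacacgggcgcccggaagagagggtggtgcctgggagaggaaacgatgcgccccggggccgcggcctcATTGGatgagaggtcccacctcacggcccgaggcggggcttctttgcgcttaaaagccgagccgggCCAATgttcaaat
The CCAAT box was present in 34.6% of all 35116 promoter windows of 300 bases, which run from 250 before to 50 after a start. Counted by gene, it was present in 5 of the 7 polyamine genes with a promoter window. Neither the E-box CACGTG, the GC box GGGCGG, the TATA box TATAAA, the cyclic AMP response element TGACGTCA nor the core of the interferon-stimulated response element was found in the SAT1 window on either strand. A match is a description of letters and no evidence of binding.

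The oxidases of the breakdown route gave small differences. PAOX, which oxidises acetylated polyamines in peroxisomes, had log2 values of 7.88, 8.06 and 7.99 after siTCTP and 8.13, 7.98 and 8.09 after siLuc on its probe ILMN_2363058. The groups overlapped. The log2 change of PAOX was -0.088 ± 0.10 (SE, adjusted p = 0.731 from limma), and its 95% interval was 80.9% to 109% of the siLuc signal. The change of PAOX was -0.041 without siTCTP replicate 1 and -0.055 without siLuc replicate 1. SMOX, which turns spermine into spermidine, had log2 values of 6.12, 5.81 and 6.02 after siTCTP and 6.24, 6.00 and 6.09 after siLuc on the probe ILMN_2367258. These values were near background, as this SMOX probe was detected on 2 of the 3 siTCTP arrays and on all 3 siLuc arrays. The log2 change of SMOX was -0.13 ± 0.11 (SE, adjusted p = 0.632), with a 95% interval of 77.1% to 108% of the siLuc signal. Single arrays moved it to -0.043 (without siTCTP replicate 2), -0.064 (without siLuc replicate 1) and -0.20 (without siTCTP replicate 1). The other SMOX probe, ILMN_2280707, was detected on 0 arrays. Of the other PAOX probes ILMN_2278265 was detected on 0 arrays and ILMN_1765116 on 1, siLuc replicate 1, and these 3 probes were not tested.

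ODC1, the first enzyme of the pathway, was bright in both groups. Its log2 values were 12.02, 11.65 and 11.76 on the siTCTP arrays and 11.87, 11.86 and 11.85 on the siLuc arrays. The siTCTP arrays lay on both sides of the siLuc arrays, which differed by less than the siTCTP arrays did. The means of ODC1 were 11.81 ± 0.19 after siTCTP and 11.86 ± 0.01 after siLuc (SD, n = 3 each). The log2 change was -0.052 ± 0.11 (SE, adjusted p = 0.863 from limma), and the 95% interval of 81.7% to 114% of the siLuc signal holds both a modest fall and a modest rise. Its sign turned under median scaling (0.022) and without siTCTP replicate 2 (0.025).

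AMD1, whose product donates the aminopropyl groups, had log2 values of 11.48, 11.08 and 11.22 on the siTCTP arrays and 11.21, 11.62 and 11.27 on the siLuc arrays. The highest array was siLuc replicate 2 and the lowest siTCTP replicate 2. The log2 change of AMD1 was -0.11 ± 0.13 (SE, adjusted p = 0.758 from limma), or 0.020 without siLuc replicate 2. Its 95% interval was 76.1% to 114% of the siLuc signal.

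SRM, spermidine synthase, had the largest positive log2 change of the 9 genes. The SRM values were 9.78, 9.86 and 9.42 on the siTCTP arrays and 9.39, 9.37 and 9.64 on the siLuc arrays. Of the siTCTP arrays 2 were above every siLuc array, and siTCTP replicate 3 lay among them. The means were 9.69 ± 0.23 after siTCTP and 9.47 ± 0.15 after siLuc (SD, n = 3 each), a log2 change of 0.22 ± 0.13 (SE, adjusted p = 0.45 from limma). The 95% interval was 96.0% to 141% of the siLuc signal. The log2 change of SRM was 0.13 without siTCTP replicate 2 and 0.36 without siTCTP replicate 3.

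SMS, spermine synthase, was measured by a pair of tested probes. On ILMN_1694305 the SMS values were 10.97, 11.10 and 10.96 after siTCTP and 10.94, 10.96 and 11.18 after siLuc, a log2 change of -0.015 ± 0.11 (SE, adjusted p = 0.963 from limma over genes). On ILMN_2225318 they were 10.60, 10.65 and 10.32 after siTCTP and 10.36, 10.37 and 10.39 after siLuc, a log2 change of 0.15 (adjusted p = 0.6 from limma over all detected probes). The groups overlapped on both probes. The change of the dimmer SMS probe minus that of the brighter was 0.16 (two-sided exact permutation test, p = 0.3, where 3 arrays against 3 allow no p below 0.1, and adjusted p = 0.8 over 4 pairs of probes).

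ODC1 and SRM are known targets of MYC, a factor that binds the E-box, and their E-boxes are given because these were the 2 genes of the 7 with a promoter window that held one. ODC1 had 2 E-boxes, in the window of its more downstream annotated start, beginning at positions -29 and 6 from that start, while the window of its upstream start held none. The stretches lie on the minus strand at chr2:10448024-10448053 and chr2:10447990-10448019 (GRCh38.p14), inside the gene as annotated from the upstream start. SRM had 1 E-box, beginning at position -199 from its start, in the 250 bases at chr1:11060019-11060268 on the minus strand. Capitals mark the E-box.
ODC1 first E-box: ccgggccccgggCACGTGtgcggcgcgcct
ODC1 second E-box: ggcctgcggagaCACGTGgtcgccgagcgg
SRM: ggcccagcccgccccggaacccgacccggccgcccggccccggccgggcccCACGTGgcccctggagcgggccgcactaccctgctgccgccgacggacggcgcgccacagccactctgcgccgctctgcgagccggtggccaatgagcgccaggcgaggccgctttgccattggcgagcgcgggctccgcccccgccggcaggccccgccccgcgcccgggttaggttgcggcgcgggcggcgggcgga
An E-box was present in 7.26% of all 35116 windows. The GC box was present in the windows of 6 of the 7 genes, SAT1 being the exception, and in 45.0% of all windows. The genes were counted by any of their windows, of which ODC1 had 2 and AMD1 3, and the shares by single window, so the 2 are not alike.

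Of the genes that act on the ODC1 protein, AZIN1 was nearest to the threshold. Its brightest probe, ILMN_1656682, gave log2 values of 10.67, 10.73 and 10.79 on the siTCTP arrays and 11.22, 11.02 and 10.94 on the siLuc arrays. The groups did not overlap, although the highest siTCTP array and the lowest siLuc array lay close together. The means of AZIN1 were 10.73 ± 0.06 after siTCTP and 11.06 ± 0.14 after siLuc (SD, n = 3 each), a log2 change of -0.33 ± 0.11 (SE, adjusted p = 0.129 from limma). The signal was 79.5% of that after siLuc, with a 95% interval of 67.9% to 93.1%. AZIN1 ranked 545 of the 8968 genes by its p.

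The other probes of AZIN1 gave smaller changes. ILMN_2327994, which the annotation pairs with another AZIN1 transcript, gave 7.96, 8.14 and 8.54 after siTCTP and 8.66, 7.96 and 8.46 after siLuc, a log2 change of -0.14 (adjusted p = 0.765 from limma over all detected probes). ILMN_1704550, which the annotation pairs with the same transcript as the brightest probe, was detected on 2 of the 3 siTCTP arrays and on all 3 siLuc arrays. It gave 6.23, 5.97 and 6.16 after siTCTP and 6.14, 6.50 and 6.25 after siLuc, a log2 change of -0.18 (adjusted p = 0.555). Both had overlapping groups. The changes of these AZIN1 probes minus that of the brightest were 0.19 and 0.15 (two-sided exact permutation tests, p = 0.6 and 0.5), and with the mean of all 3 probes AZIN1 had a log2 change of -0.22 (adjusted p = 0.317 from limma).

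OAZ1, the main antizyme, whose translation needs a ribosomal frameshift that polyamines promote, had log2 values of 14.19, 13.94 and 14.02 after siTCTP and 13.84, 13.83 and 13.99 after siLuc. The groups overlapped through siTCTP replicate 2 and siLuc replicate 3. The log2 change of OAZ1 was 0.16 ± 0.11 (SE, adjusted p = 0.503 from limma), with a 95% interval of 95.6% to 131% of the siLuc signal, and the change was 0.095 without siTCTP replicate 1. The OAZ1 probe stood at 74.0% to 95.3% of the highest intensity on each array, and what this does to its change was not tested.

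**Figure D2:**
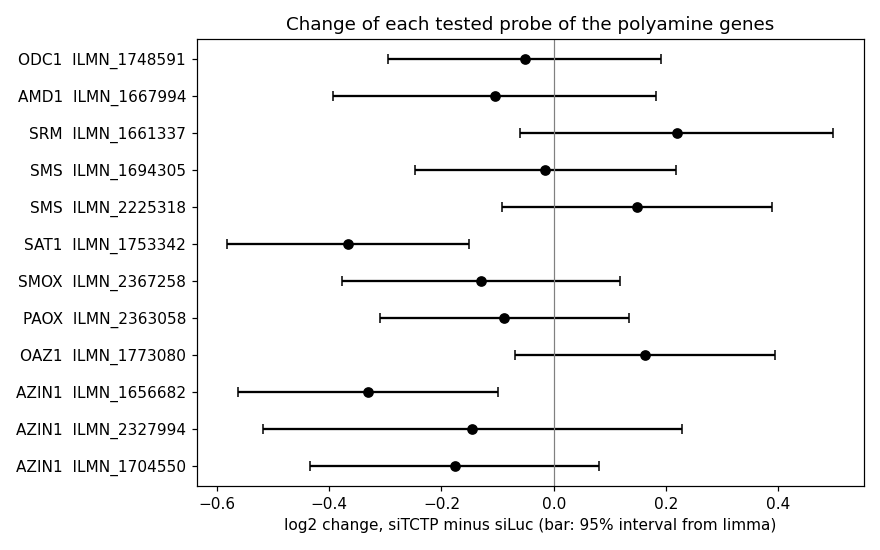
Log2 change (siTCTP minus siLuc, horizontal axis) with its 95% interval from limma for the 12 tested probes of the 9 polyamine genes. The intervals of SAT1 and of the brightest AZIN1 probe lie below 0, and the other 10 span it.

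**Figure D3:**
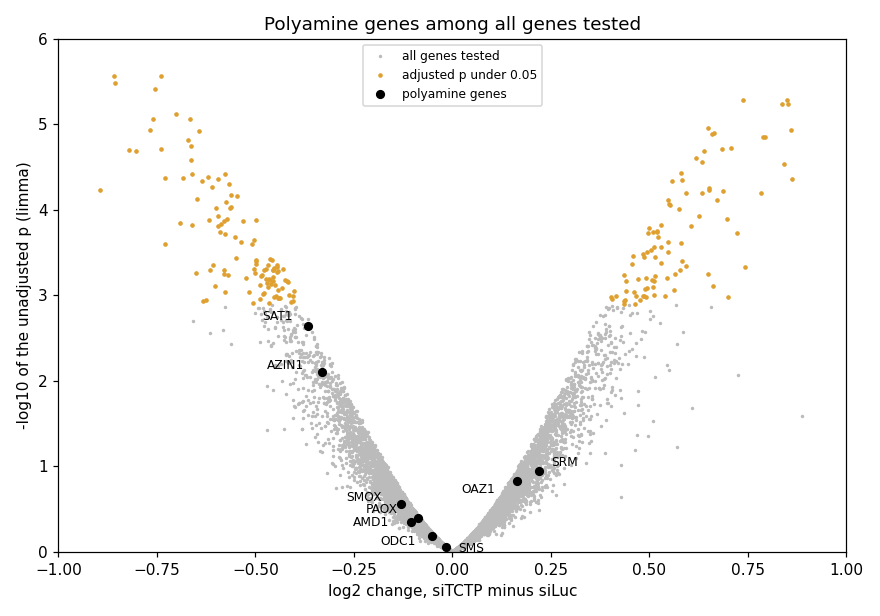
Log2 change (horizontal axis) and -log10 of the unadjusted p from limma (vertical axis) of the genes tested, with those at an adjusted p under 0.05 in orange and the polyamine genes in black. SAT1, at an adjusted p of 0.0673, lies just under the called genes, and 26 genes fall outside the plotted range.

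Genes that feed the pathway or use its products were counted in 6 lists. Of 53 genes listed, 51 had a probe and 35 were tested. At an adjusted p under 0.05 from limma 1 was lower and 0 were higher, beside 1.52% and 1.04% of all genes. At an unadjusted p under 0.05 there were 4 of the 35, beside 15.6% of all genes. These 35 genes had a median log2 change of -0.024.

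The gene called was SLC7A2, a transporter of arginine and other cationic amino acids, among 9 tested genes of ornithine and arginine supply. Its log2 values were 7.36, 6.98 and 7.33 on the siTCTP arrays and 7.74, 7.86 and 7.58 on the siLuc arrays. All siTCTP arrays were below all siLuc arrays. SLC7A2 had a log2 change of -0.51 ± 0.12 (SE, adjusted p = 0.0486 from limma), and its other probes, ILMN_1711451 and ILMN_1685830, were detected on 0 arrays. The call was lost in 12 of the 18 other settings, among them each fit without 1 siLuc array and without siTCTP replicate 1 or 2, and median scaling (adjusted p = 0.363). ARG2, the mitochondrial arginase, which makes ornithine, was chosen after its value was seen. Its log2 values were 9.42, 9.57 and 9.40 after siTCTP and 9.23, 9.11 and 9.02 after siLuc, a log2 change of 0.34 ± 0.10 (SE, adjusted p = 0.111). The median of this list was -0.10.

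None of the other lists held a called gene, and their members at an unadjusted p under 0.05 from limma were MTRR and SLC7A5. Among 9 tested genes of S-adenosylmethionine supply and the methionine cycle (median log2 change 0.0090) the smallest p-values were those of MTRR, which reactivates methionine synthase (log2 change -0.34, adjusted p = 0.253), and of MAT2B, the regulatory subunit of methionine adenosyltransferase (-0.17, adjusted p = 0.437). Methylthioadenosine, the by-product of SRM and SMS, is salvaged towards methionine. Of this route 5 genes were listed, all tested, with a median log2 change of 0.21. The salvage genes with the smallest p were MRI1 (0.23, adjusted p = 0.323) and MTAP (0.24, adjusted p = 0.37). Spermidine is used to make hypusine on eIF5A, and of 4 tested genes of this list, with a median of -0.038, EIF5A2 had a log2 change of -0.16 (adjusted p = 0.517) and the hydroxylase gene DOHH one of 0.18 (adjusted p = 0.534).

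Of 13 listed genes of polyamine transport 11 had a probe and 5 were tested. All 5 had a log2 change below 0, from -0.33 to -0.023, beside 4454 of all 8968 genes. Their median was -0.15, and none passed the test. SLC7A5, a large neutral amino acid transporter that pairs with SLC3A2, had log2 values of 7.31, 7.11 and 7.04 after siTCTP and 7.50, 7.36 and 7.59 after siLuc, a log2 change of -0.33 ± 0.11 (SE, adjusted p = 0.148 from limma). The groups of SLC7A5 did not overlap. SLC18B1, a vesicular polyamine transporter, had a log2 change of -0.15 (adjusted p = 0.496). Of the further enzymes and inhibitors, 3 of 5 were tested, with a median log2 change of -0.024. The smallest p-values were those of SATL1, a relative of SAT1 (-0.16, adjusted p = 0.537), and of SAT2 (0.028, adjusted p = 0.934).

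**Figure D4:**
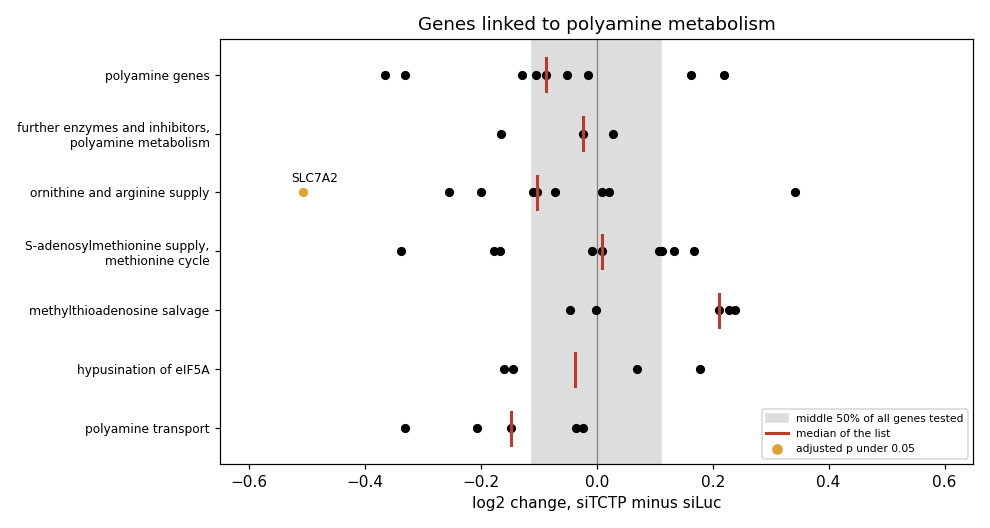
Log2 change (siTCTP minus siLuc, horizontal axis) of the tested polyamine genes and of 6 lists of linked genes, 1 point a gene, with the list median in red and the middle 50% of all genes in grey. SLC7A2, in orange, is the called gene.

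**Figure D5:**
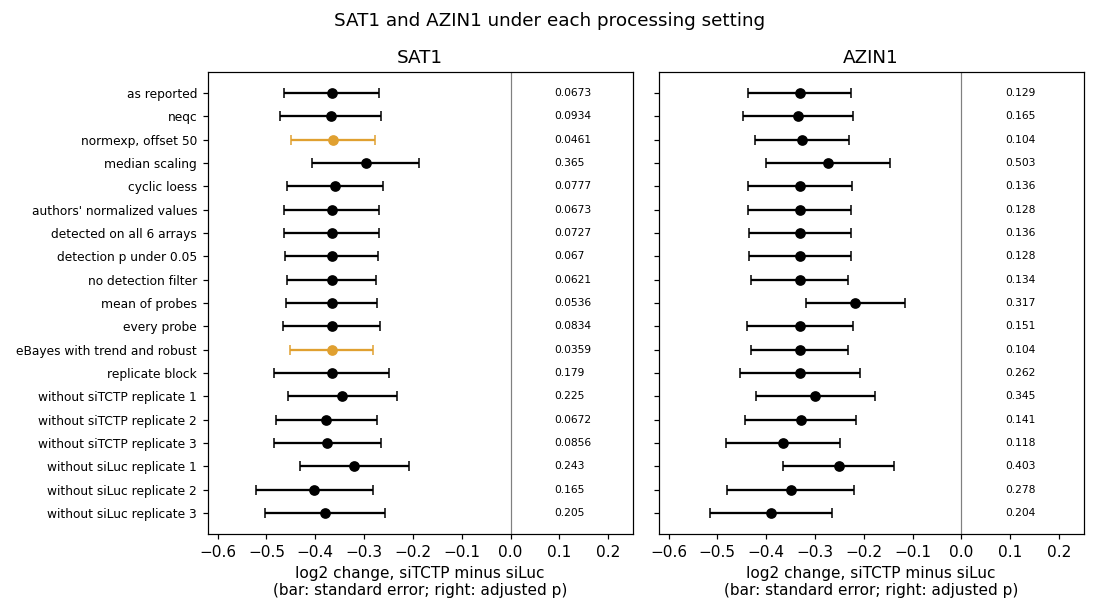
Log2 change (siTCTP minus siLuc, horizontal axis, bars are standard errors) of SAT1 and AZIN1 as reported and under 18 other settings, with the adjusted p from limma at the right and values under 0.05 in orange. SAT1 lies between -0.40 and -0.30 and AZIN1 between -0.39 and -0.22.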

How the data were processed

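The deposited probe intensities came from the authors' BeadStudio software, neither normalized nor background-subtracted, each with a deposited detection p-value. They also deposited quantile-normalized intensities, used as an alternative. Intensities were quantile-normalized, put on the log2 scale and compared (siTCTP minus siLuc) with lmFit and eBayes of limma 3.58.1 in R 4.3.3. Each gene was represented by its brightest detected probe, with Benjamini-Hochberg adjustment over 8968 genes, or over 13484 detected probes for single probes. SAM and feature selection, which the study's methods name without settings, were not run. Symbols came from the platform's annotation, where 27578 probes had 1 symbol, 13 several and 21212 none listed. Promoter sequences are those of RefSeq (GRCh38.p14), which matched 7 of the 10 genes. The fit was run on simulated data as a check of the code. The planted changes were larger than those of the polyamine genes, so changes of their size were not covered.

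The genes and lists were chosen with earlier results of these data known. The text names all polyamine genes, TPT1, and of each linked list up to 4 called genes or otherwise the 2 with the smallest p, and ARG2, KLK2, KLK3, TMPRSS2 and VWF outside this rule. The alternatives were neqc (offset 16), normexp (offset 50), cyclic loess, scaling to the median, the authors' values, other detection filters, the mean of probes, every probe, another variance model, the replicate number as a block and each array left out. No chip or scan identity was in the files. matplotlib 3.10.9 (Python 3.11.15) drew the figures.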

Additional observations from a re-analysis of the deposited data

How the results depend on the processing

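None of the polyamine genes passed the test in 16 of 18 alternative settings, and 1, SAT1, did in the other two. With normexp (log2 change -0.36, adjusted p = 0.0461) and with eBayes with trend and robust (-0.37, adjusted p = 0.0359) SAT1 was called. Over all alternatives its adjusted p was between 0.0359 and 0.365, and that of AZIN1 between 0.104 and 0.503. Without single arrays SAT1 lay between -0.40 and -0.32 and AZIN1 between -0.39 and -0.25, with none called. The sign turned for ODC1 with median scaling (0.022) and without single arrays (-0.15 to 0.025), for AMD1 without single arrays (-0.21 to 0.020), and for SMS with median scaling (0.041), with the mean of probes (0.067) and without single arrays (-0.060 to 0.062). The other polyamine genes kept their sign in every setting run. Several settings could not turn a sign, as the other detection filters, every probe, the variance model and the replicate block left each log2 change unaltered. The authors' values were quantile-normalized as well. SMOX gave no value when detection on all 6 arrays was required.

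The call of SLC7A2 was lost, so that 0 linked genes were called, with neqc, normexp, median scaling, detection on all 6 arrays, every probe, trend and robust, and the replicate block (adjusted p of 0.0581, 0.0528, 0.363, 0.055, 0.0554, 0.051 and 0.102), and with each array but siTCTP replicate 3 left out in turn. Over the 6 fits without single arrays 0 to 1 linked genes were called. With median scaling 52 of all genes were called (35 lower and 17 higher), in place of 229 (136 lower and 93 higher), and the median of all genes moved to 0.034. Without single arrays the counts were 62 to 304 (37 to 169 lower, 25 to 135 higher), with 62 without siLuc replicate 2, 76 without siLuc replicate 3, 86 without siLuc replicate 1 and 85 without siTCTP replicate 1. The replicate number as a block gave 118 called genes (73 lower and 45 higher) and no polyamine gene (SAT1 adjusted p = 0.179). Deviations from the group means correlated at -0.071, -0.058 and -0.40 between arrays of the same number, which gave no sign of pairing by number. The deviations were taken within each group, so that these correlations constrain one another and cannot decide the design. No array correlated best with that of its own number. The siTCTP replicates 1, 2 and 3 correlated best with siLuc replicates 2, 3 and 1 (0.25, 0.49 and 0.44), from which no pairing was concluded. The cause of these differences was not tested. The 3 untested probes of PAOX and SMOX, of which 2 were detected on 0 arrays, and the dim SMOX signal limit what can be seen of these genes.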
